A study of Homo sapiens with 12 samples.

Results

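PTK6, MET, MST1R, HGF and AXL, tyrosine kinases of cell migration together with the growth factor that activates one of them, were followed by gene symbol through 12 RNA-seq libraries of MDA-MB-231 cells, an established human triple-negative breast cancer (TNBC) line. Of the 5 genes, 4 were among the 19907 symbols of the tables and all 4 were tested. HGF was not among those symbols and was not analysed here. Cells carried either the wild-type glucocorticoid receptor (wt-GR) or S134A-GR, in which CRISPR changed Ser134 of the endogenous receptor to alanine on both alleles. The receptor of the first line therefore can, and that of the second cannot, be phosphorylated at Ser134, and the 4 groups ask how this site and TGFβ1 bear on the transcriptome without added hormone. The S134A-GR cells were clone #1 and the wt-GR cells were a non-targeted clone from the same population, so each line is a clone, and the receptor change and clonal differences cannot be told apart. All cells, controls included, were starved of serum for 18 h in IMEM with 1% DCC (charcoal-stripped serum) and then given either vehicle or, for 6 h, TGFβ1 at 10 ng/mL. With 3 replicates in each of wt-GR vehicle, wt-GR TGFβ1, S134A-GR vehicle and S134A-GR TGFβ1, p-values measure the spread between replicates of which the labels do not say whether they came from separate cultures.

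PTK6 (Brk, breast tumor kinase) is an intracellular kinase related to the SRC family that has no lipid anchor and phosphorylates RNA-binding and adhesion proteins. MET and RON, the product of MST1R, are sister receptors of the cell surface. MET binds hepatocyte growth factor (HGF) and RON binds macrophage-stimulating protein (MSP, the product of MST1), and both ligands are made as inactive precursors that serine proteases cleave. AXL is a receptor of the TAM family, whose ligand is GAS6, and is typically abundant in mesenchymal breast cancer lines. PTK6 is known to act downstream of MET in cell migration, and all of these kinases have been linked to motility and invasion of breast cancer cells.

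The deposited values are counts divided by size factors, called normalized read counts here, and they resolve into whole reads. The libraries held 56362036 to 129832227 reads, and the lowest value of any of the 4 genes in a library rested on 445 reads (MST1R in S134A-GR TGFβ1 replicate 1). Even the smallest of these libraries exceeds the average depth per sample that the study reports for its paired-end sequencing. The reason for this mismatch was not tested. If both mates of a pair were counted, the read numbers given here would overstate the fragments behind them. The level of 3 reads was 2.15 to 4.89 normalized counts. Markers of the mesenchymal line were high (VIM, 422900 ± 3380 in wt-GR vehicle, SD, n = 3). Of the luminal genes, CDH1 was at 12.5 and ESR1 at 7.32 normalized counts or less in every library. The others present were expressed, EPCAM at 1024 ± 64.6 in wt-GR and 378 ± 51.7 in S134A-GR under vehicle. In the same order GATA3 stood at 808 ± 20.1 and 1093 ± 79.4, and FOXA1 at 229 ± 11.3 and 289 ± 11.8. Summed markers were 7.61 to 36.5 normalized counts for fibroblasts (4 genes, LUM at 0 in S134A-GR), 1394 to 2109 for luminal cells (5 of 6 genes present), 928 to 2032 for endothelium (3 genes, mostly PECAM1) and 26600 to 42890 for leukocytes (3 of 4 genes present, almost all CD68). CD68 stood at 39120 to 42860 in S134A-GR and at 26580 to 28220 in wt-GR libraries, with PTPRC at 9.80 or less in every library, and its part in the results was not tested. The receptor gene itself, NR3C1, stood at 11770 ± 1190 in wt-GR and 8815 ± 259 in S134A-GR cells under vehicle, but a count per gene does not read the changed codon and checks no label. In bulk RNA, fewer cells of a kind and less RNA per cell cannot be told apart.

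In hg38 with the GENCODE v44 annotation, PTK6 lies at chr20:63528001-63537376 on the minus strand with 8 exons, MET at chr7:116672196-116798377 on the plus strand with 21 exons, MST1R at chr3:49887002-49903873 on the minus strand with 20 exons, and AXL at chr19:41219223-41261766 on the plus strand with 20 exons. MST1R exons overlap 2 long non-coding RNA genes of the opposite strand over 6.78% of their bases, and AXL exons overlap another over 1.31%. The strand setting of the counting is not given in the sources used here, so reads in those stretches cannot be assigned with certainty.

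The stretches of 250 bases before the start of MET and MST1R are shown because these sister receptors moved in opposite directions in the data below. They come from RefSeq (GRCh38.p14), read 5′ to 3′ on the strand of the gene, chr7:116671946-116672195 for MET and chr3:49903874-49904123 for MST1R, and capitals mark a motif match.
MET: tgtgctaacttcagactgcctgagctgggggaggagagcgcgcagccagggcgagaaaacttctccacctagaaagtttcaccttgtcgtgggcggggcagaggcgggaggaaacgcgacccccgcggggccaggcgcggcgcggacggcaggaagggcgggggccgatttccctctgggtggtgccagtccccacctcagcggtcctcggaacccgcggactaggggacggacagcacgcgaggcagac
MST1R: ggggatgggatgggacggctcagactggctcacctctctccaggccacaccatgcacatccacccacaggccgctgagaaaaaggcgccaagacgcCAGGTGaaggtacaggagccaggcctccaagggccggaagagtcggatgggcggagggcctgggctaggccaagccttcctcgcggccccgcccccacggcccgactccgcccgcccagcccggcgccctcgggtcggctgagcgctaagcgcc
The motifs searched on both strands were the palindromic glucocorticoid response element, the hexamer AGAACA that forms 1 arm of it, the AP-1 motif TGANTCA, the SMAD element CAGACA and the E-box CACCTG bound by SNAIL and ZEB factors. The MET window held none of these letters, and the MST1R window held the E-box on the opposite strand, as CAGGTG, 154 bases before the start. AXL windows, not printed here, held the same E-box 106 bases before 1 start and the SMAD element, as TGTCTG, 173 bases before another. The E-box was therefore not particular to MST1R among the genes searched. No window was matched to the symbol PTK6, so its promoter was not searched. Over 35116 RefSeq windows of the same length, 17.49% held that E-box, 13.61% the SMAD element, 12.39% the hexamer, 6.57% the AP-1 motif, and 1 window held the full response element. GC content was 68.4% in the MET window and 70.8% in the MST1R window, against a median of 58.0% over all windows.

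The 4 genes spanned a wide range of levels. Per kilobase of exon and in normalized read counts, wt-GR vehicle cells held AXL at 23160 ± 1150, MET at 1489 ± 83.7, PTK6 at 631 ± 41.1 and MST1R at 219 ± 8.35 (SD, n = 3 each). Among the 57 receptor tyrosine kinase genes with a length, AXL ranked 1 and MET ranked 3 per kilobase in every group, with EPHA2 between them. MST1R ranked 20 of those 57 in wt-GR vehicle, 22 in wt-GR TGFβ1 and S134A-GR vehicle, and 24 in S134A-GR TGFβ1. PTK6 ranked 10 of 31 non-receptor kinases in wt-GR vehicle, 7 in S134A-GR vehicle and 8 in both TGFβ1 groups. AXL was within the top 0.628% of 17524 genes in every group.

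PTK6 was higher in S134A-GR than in wt-GR cells under vehicle, and TGFβ1 raised it in wt-GR cells. Under vehicle the wt-GR libraries held 1727, 1903 and 1960 normalized counts of PTK6 and the S134A-GR libraries 2472, 2748 and 2575. The groups did not overlap, and PTK6 was 39.5% higher in S134A-GR (log2 difference 0.48, SE 0.0848, 95% interval 0.30 to 0.66, limma adjusted p = 0.000265). Over all 18579 genes tested, 51.5% were called between the lines under vehicle at an adjusted p under 0.05, 25.0% higher and 26.5% lower in S134A-GR. Against that background 3 of the 4 genes were called, 2 higher (PTK6, MET) and 1 lower (MST1R).

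TGFβ1 libraries of wt-GR held 2365, 2070 and 2374 normalized counts of PTK6, all above the vehicle libraries of the line. That was a rise of 21.7% (log2 difference 0.28, SE 0.0848, limma adjusted p = 0.0286). The call was lost when wt-GR vehicle replicate 1 (0.23, adjusted p = 0.104) or replicate 2 (0.30, 0.06), or wt-GR TGFβ1 replicate 1 (0.25, 0.106) or replicate 3 (0.25, 0.106), was left out. In wt-GR cells TGFβ1 changed 21.0% of all genes tested, 11.2% upward and 9.82% downward, and here 3 of the 4 genes were called, with PTK6 and MET higher and MST1R lower.

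S134A-GR libraries under TGFβ1 held 2284, 2912 and 2726 normalized counts of PTK6, spread on both sides of the vehicle libraries of that line. The log2 difference was 0.02 (95% interval −0.17 to 0.20, limma adjusted p = 0.932). The lines overlapped under TGFβ1, with a log2 difference of 0.21 between them (95% interval 0.03 to 0.40, limma adjusted p = 0.0507). Replicate 1 of S134A-GR TGFβ1 was the low library, and without it the difference was 0.31 (limma adjusted p = 0.0032). The call also passed with a replicate block (adjusted p = 0.0419), with DESeq2 (0.0256) and with 4 other settings. In order of level, wt-GR vehicle was lowest, wt-GR TGFβ1 followed without overlap, S134A-GR vehicle lay above both without overlap, and S134A-GR TGFβ1 overlapped the last 2.

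MET was higher in S134A-GR cells under either treatment and TGFβ1 raised it in both lines. The wt-GR vehicle libraries held 11130, 11080 and 10060 normalized counts and the S134A-GR vehicle libraries 12310, 12590 and 13000. No library of the lines overlapped, at 17.5% more MET in S134A-GR (log2 difference 0.23, SE 0.0482, limma adjusted p = 0.000974), and adjustment for GC content and transcript length, chosen after seeing the data, gave 0.35. Under TGFβ1, wt-GR libraries held 12330, 13400 and 12570 and S134A-GR libraries 17430, 15910 and 16420 normalized counts. The gap between the lines was then 29.9% (log2 difference 0.38, SE 0.0482, limma adjusted p = 1.59e-05), again without overlap. Under TGFβ1, 48.8% of all genes tested were called between the lines, 23.1% higher and 25.7% lower in S134A-GR. Of the 4 genes 2 were called there, MET as higher and MST1R as lower.

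The TGFβ1 rise of MET was 18.7% in wt-GR (log2 difference 0.25, SE 0.0482, limma adjusted p = 0.00198) and 31.2% in S134A-GR (0.39, SE 0.0482, adjusted p = 4.64e-05). MET kept its direction in these 4 comparisons under every alternative run, and its call under all but the requirement of an absolute log2 difference of at least 1, which none of the 4 genes met. In S134A-GR cells TGFβ1 changed 18.7% of all genes tested, 10.0% upward and 8.69% downward, and 2 of the 4 genes were called, MET upward and MST1R downward. By level, S134A-GR TGFβ1 stood alone at the top (16590 ± 776), S134A-GR vehicle (12630 ± 349) and wt-GR TGFβ1 (12770 ± 562) overlapped, and wt-GR vehicle was lowest (10760 ± 604, SD, n = 3 each).

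MST1R moved the opposite way to its sister receptor in each of the same comparisons. The wt-GR vehicle libraries held 1098, 1175 and 1173 normalized counts, and the S134A-GR vehicle libraries 785.2, 671.1 and 784.9. MST1R was 1.54-fold lower in S134A-GR (log2 difference −0.62, SE 0.119, 95% interval −0.88 to −0.37, limma adjusted p = 0.000522). Under TGFβ1 the wt-GR libraries held 902.1, 851.7 and 868.7 and the S134A-GR libraries 423.2, 650.0 and 539.4 normalized counts. That was 1.65-fold lower in S134A-GR (−0.72, SE 0.119, limma adjusted p = 0.000167). No library of the lines overlapped under either treatment.

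TGFβ1 lowered MST1R in both lines, by 1.31-fold in wt-GR (log2 difference −0.39, SE 0.119, limma adjusted p = 0.0307) and by 1.41-fold in S134A-GR (−0.49, SE 0.119, adjusted p = 0.00991). In wt-GR the call was lost without wt-GR vehicle replicate 2 (−0.38, adjusted p = 0.094) or replicate 3 (−0.38, 0.0612), or without wt-GR TGFβ1 replicate 1 (−0.42, 0.0627), replicate 2 (−0.37, 0.0891) or replicate 3 (−0.39, 0.0808). In S134A-GR it was lost when only the 2 groups compared entered the fit (adjusted p = 0.108). The 4 groups fell in the order wt-GR vehicle (1149 ± 43.8), wt-GR TGFβ1 (874 ± 25.6), S134A-GR vehicle (747 ± 65.8) and S134A-GR TGFβ1 (538 ± 113), with no overlap between neighbours.

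AXL passed no test in the 4 comparisons and was the most abundant of the genes by far. Vehicle libraries held 124500, 119400 and 112800 normalized counts in wt-GR and 114500, 110100 and 114300 in S134A-GR. The ranges overlapped, and the log2 difference was −0.07 (95% interval −0.17 to 0.02, limma adjusted p = 0.178). Leaving out wt-GR vehicle replicate 3, the lowest library of its group, gave −0.11 (adjusted p = 0.0383). TGFβ1 libraries held 115400, 118400 and 120200 in wt-GR and 124900, 115800 and 114900 in S134A-GR.

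The difference of AXL between the lines under TGFβ1 was 0.01 on the log2 scale (95% interval −0.09 to 0.10, limma adjusted p = 0.933), with a sign that flipped with TMM scaling. The response of AXL to TGFβ1 was −0.01 in wt-GR (interval −0.10 to 0.08, adjusted p = 0.912, positive once adjusted for GC content and transcript length). In S134A-GR it was 0.07 (interval −0.02 to 0.16, adjusted p = 0.319), where the 3 TGFβ1 libraries lay just above the 3 vehicle libraries. Together these 4 intervals reached from −0.17 to 0.16 on the log2 scale.

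**Figure D1:**
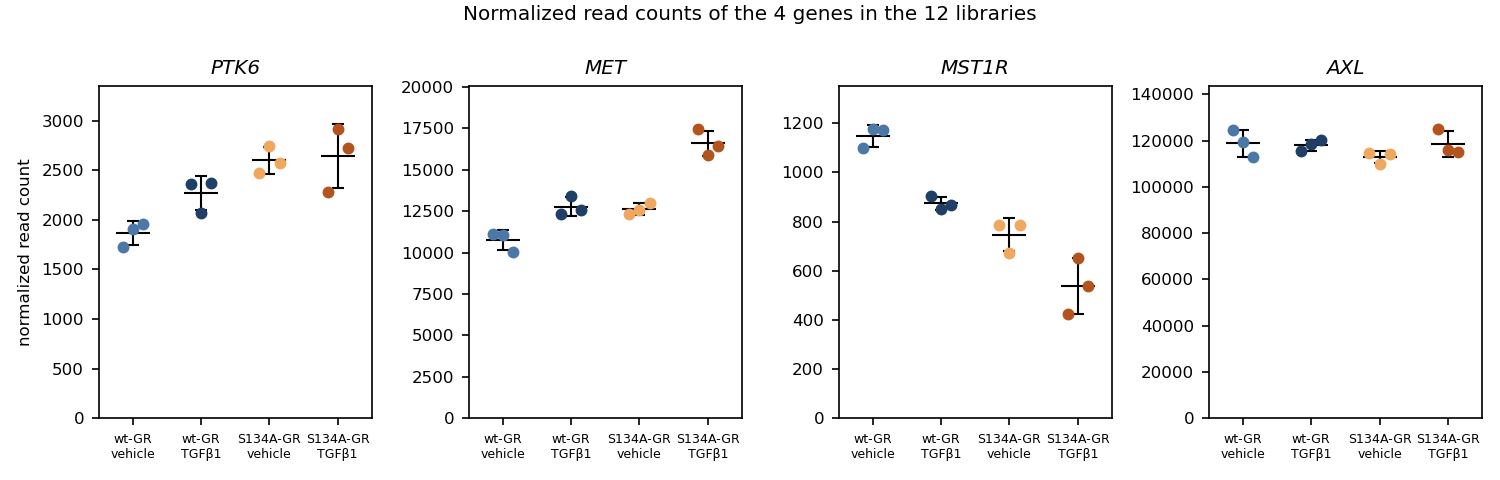
Normalized read counts (y axis, from 0) of PTK6, MET, MST1R and AXL in each library, with a point for each of 3 replicates per group and a bar for the mean ± SD. MET and MST1R run in opposite directions over the groups, S134A-GR TGFβ1 being highest for MET (16590) and lowest for MST1R (538).

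For 3 libraries against 3, an exact two-sided permutation test cannot go below 0.1. This exact test gave 0.1 for each gene and comparison without overlap, AXL in S134A-GR included, and 0.3 or more for the others.

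When the response to TGFβ1 was compared between the lines as an interaction contrast, none of the 4 genes passed limma's adjusted threshold, and 0.414% of all genes did (0.167% upward and 0.248% downward). At an unadjusted p under 0.05 limma, edgeR and DESeq2 each gave 1 of the 4 genes, PTK6, and edgeR and DESeq2 called 0 after adjustment as well. Of all 18579 genes tested, 1728, 1692 and 1589 were at that unadjusted level in limma, edgeR and DESeq2. The PTK6 response was smaller in S134A-GR by a log2 difference of −0.27 (SE 0.12, 95% interval −0.52 to −0.01, limma adjusted p = 0.519). MET responded with 0.14 more in S134A-GR (interval −0.002 to 0.29, limma adjusted p = 0.542). For MST1R the difference was −0.10 (interval −0.46 to 0.26, adjusted p = 0.887), and for AXL 0.08 (interval −0.05 to 0.21, adjusted p = 0.72). A rise of PTK6 called in wt-GR and not called in S134A-GR is thus not shown to differ between the lines.

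**Figure D2:**
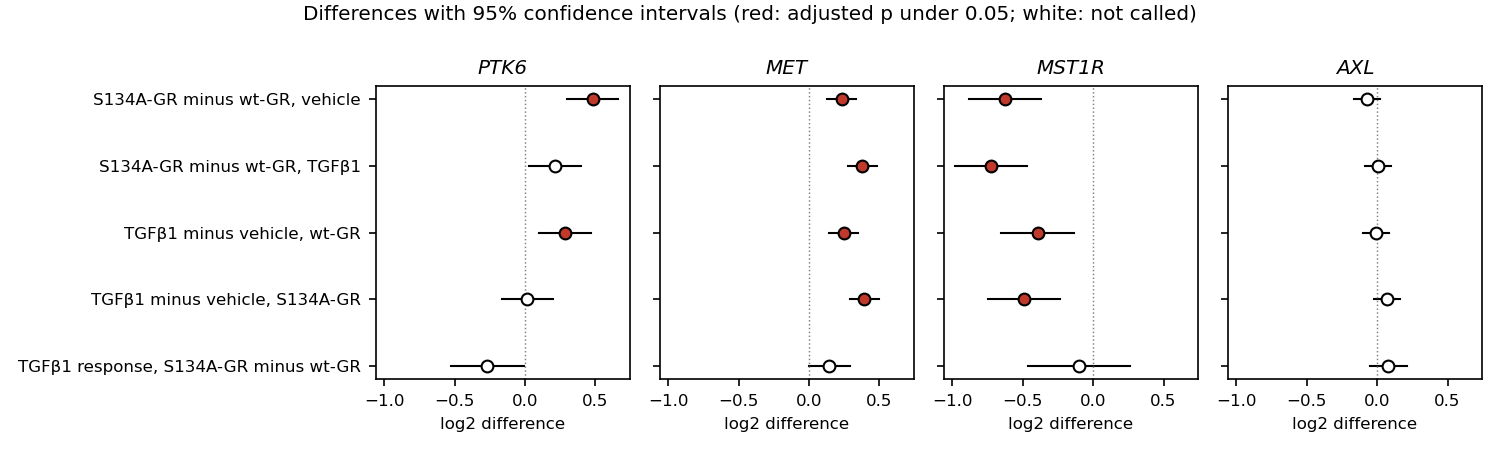
Log2 differences (x axis) of the 4 genes in the 5 comparisons, points with 95% confidence intervals, red where the limma adjusted p was under 0.05. MET intervals lie above 0 and MST1R intervals below 0 in the first 4 comparisons, while in the bottom row, the response compared between lines, every point is white.

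The chromosomal setting of the 4 genes differed. Among the 10 nearest tested genes on each side of PTK6, 14 of 20 were higher in S134A-GR under vehicle and the other 6 were not called, with a median log2 difference of 0.45, close to that of PTK6 itself (0.48, place 10 of 21). These neighbours span 0.806 Mb at the end of the long arm of chromosome 20 and include SRMS, the closest relative of PTK6 and its next gene (0.87, limma adjusted p = 0.0205), and EEF1A2, an elongation factor (1.27, adjusted p = 4.45e-11). Under TGFβ1 10 of the 20 were higher and 1 lower, with a median of 0.24. Of all genes tested, 25.0% were called higher and 26.5% lower under vehicle, and 23.1% and 25.7% under TGFβ1.

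PTK6 transcript sequence was richer in GC (57.6%) than that of 78.1% of genes. After the adjustment for GC content and transcript length, PTK6 kept a log2 difference of 0.43 under vehicle, 11 of its 20 neighbours were higher and their median was 0.28. The median over all genes tested was 0.02 without the adjustment and 0.03 with it. With it 4614 of 16428 genes were called higher and 4246 lower under vehicle. What the shared direction rests on was not tested.

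Under vehicle CAV1 and CAPZA2, directly beside MET, moved the other way, while its wider neighbourhood was mixed. CAV1, CAV2 and TES before it and CAPZA2 after it were lower in S134A-GR under vehicle (log2 differences −0.70, −0.67, −0.88 and −0.44, limma adjusted p at most 6.69e-07) while MET was higher. Over its 20 neighbours 1 was higher, ST7-AS1 next after CAPZA2 (0.89, limma adjusted p = 0.000539), and 6 were lower, with a median of 0.05. Under TGFβ1 7 were higher and 6 lower with a median of 0.26, and MET (0.38) was at place 9 of 21. With the GC and length adjustment 5 neighbours were higher and 4 lower under vehicle, with a median of 0.17 (MET 0.35). MST1R was the lowest of 21 genes in its neighbourhood under either treatment. Around it 6 were higher and 6 lower under vehicle, with a median of 0.09, and MST1, the gene of its ligand, was among those higher. Under TGFβ1 4 were higher and 6 lower (median 0.01). For AXL 9 neighbours were higher and 2 lower under vehicle (median 0.18), or 8 and 5 with the adjustment (0.11), and 4 were higher and 4 lower under TGFβ1 (0.03).

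**Figure D3:**
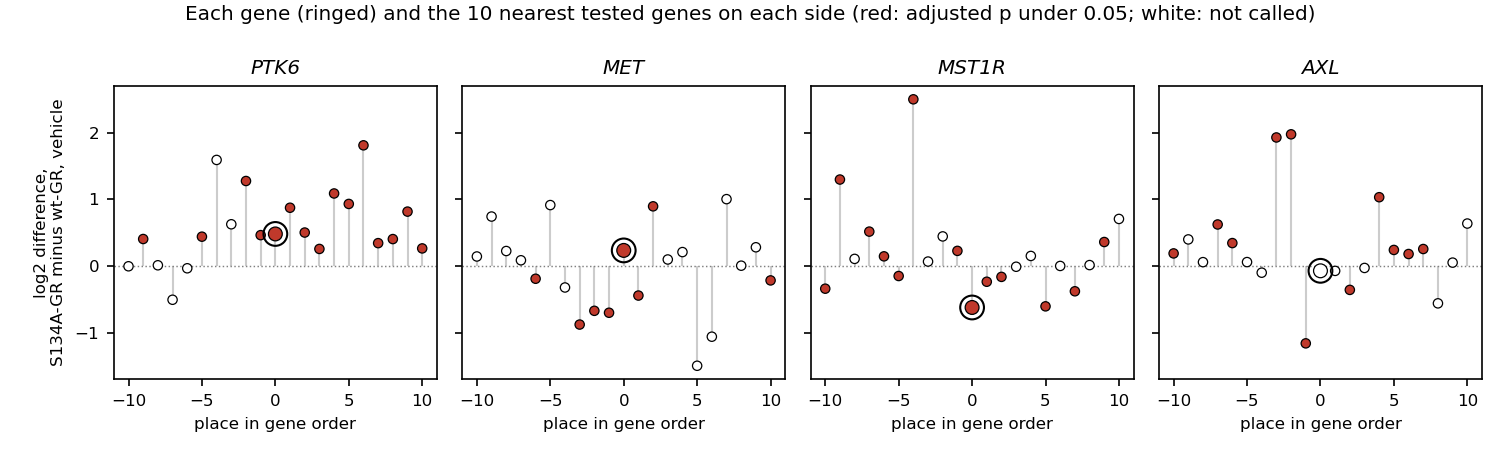
Log2 difference between the lines under vehicle (y axis) for each gene, ringed at place 0, and for the 10 nearest tested genes on each side by gene order (x axis), red where the limma adjusted p was under 0.05. Points right of PTK6 all lie above 0, MET lies above the genes next to it, and MST1R is the lowest point of its panel. The median of the 20 neighbours of MET is 0.05.

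The genes whose pattern was most like that of each called gene were ranked over 13281 genes by the root mean square difference of log2 values over the 12 libraries, each gene centred on its own mean. The libraries share the same groups, so likeness includes the group differences. For PTK6 these were TMEM259 (0.0684), AP5Z1 (0.0687) and C1orf122 (0.0718). For MET they were ITGB1 (0.0466), the integrin beta chain of many matrix receptors, E2F7 (0.0598), a repressor of cell cycle genes, and NOLC1 (0.0633), a nucleolar phosphoprotein. For MST1R they were HID1 (0.134), ACSS2 (0.137), an acetyl-CoA synthetase, and CARD16 (0.139). The SD of log2 values over the 12 libraries was 0.234 for PTK6, 0.24 for MET and 0.446 for MST1R.

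Around MET and RON, 28 genes of ligands, activating proteases, inhibitors, co-receptors, adaptors and negative regulators were tested with the receptors left out. Under vehicle 8 were higher and 11 lower in S134A-GR, 67.9% called against 51.5% of all genes, with a median log2 difference of −0.07 against 0.02. Under TGFβ1 7 were higher and 10 lower (60.7% against 48.8%, median −0.06 against 0.01). TGFβ1 raised 5 and lowered 4 in wt-GR (32.1% against 21.0% of all genes), and raised 4 and lowered 5 in S134A-GR (32.1% against 18.7%).

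Of the ligand side genes, MST1, which encodes MSP, was higher in S134A-GR at 529 ± 61.0 against 215 ± 26.0 normalized counts under vehicle (SD, n = 3, log2 difference 1.30, limma adjusted p = 5.89e-06), and by 1.02 under TGFβ1 (adjusted p = 6.11e-05). MST1 has near-identical pseudogene copies, between which the counting may have split reads, so its level is uncertain. Between the lines, the ligand gene was higher where the receptor gene MST1R was lower. With TGFβ1, which lowered MST1R, MST1 did not pass the test in wt-GR (−0.02, limma adjusted p = 0.948) or S134A-GR (−0.30, adjusted p = 0.211). HGFAC, the protease that activates HGF and MSP, was at 6.56 ± 2.57 and 14.5 ± 4.69 normalized counts in the vehicle groups and did not pass the test (limma adjusted p = 0.181).

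Of the cell-surface proteases, ST14 (matriptase) was lower in S134A-GR, 167 ± 14.8 against 304 ± 11.7 normalized counts under vehicle (log2 difference −0.87, limma adjusted p = 2.80e-05) and by −1.02 under TGFβ1. PLAU, urokinase, was the axis gene most raised by TGFβ1 in both lines, by 1.12 in wt-GR (67740 ± 2920 to 147500 ± 4050) and by 0.58 in S134A-GR (86660 ± 1360 to 130000 ± 4890). Its difference between the lines turned from 0.36 under vehicle to −0.18 under TGFβ1 (adjusted p = 3.92e-06 and 0.00151). HPN (hepsin) was called lower under vehicle on 9 reads in wt-GR and 1 in S134A-GR, and the inhibitor SPINT1 on 88 and 44, so both rest on few reads. They fall outside the naming rule and were chosen after their values were seen. SPINT2, the abundant inhibitor of the same proteases, had 50040 ± 3030 and 53140 ± 3230 normalized counts in the vehicle groups (adjusted p = 0.197).

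Among co-receptors, PLXNB1, the semaphorin receptor that pairs with MET and RON, was higher in S134A-GR under vehicle (log2 difference 0.77, limma adjusted p = 3.67e-06) and under TGFβ1 (0.57, adjusted p = 7.24e-05), as was NRP1 (0.38 and 0.44, adjusted p = 6.17e-05 and 1.81e-05). ITGB4, the integrin that docks with MET and RON, was lower by −0.91 under vehicle and −1.53 under TGFβ1 (adjusted p = 2.00e-07 and 1.37e-09). CD44, whose variant isoforms hold HGF for MET, rose with TGFβ1 by 0.47 in wt-GR and 0.46 in S134A-GR (adjusted p = 7.12e-08 and 1.05e-07) and differed between the lines in neither treatment at the threshold.

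Inside the cell, SRC was higher in S134A-GR by 0.71 under vehicle and 0.40 under TGFβ1 (limma adjusted p = 1.65e-09 and 4.32e-07). CBL, the ubiquitin ligase that marks MET for degradation, was lower under both treatments (−0.72 and −0.49, adjusted p = 0.000174 and 0.00367). PTPRJ, a phosphatase of MET, was lower in S134A-GR (−0.65 under vehicle and −0.54 under TGFβ1, adjusted p = 7.59e-07 and 4.97e-06) and fell with TGFβ1 in both lines (−0.62 and −0.52, adjusted p = 4.09e-06 and 3.15e-05). LRIG1, which lowers MET protein, fell with TGFβ1 in both lines (−0.24 in wt-GR and −0.12 in S134A-GR, adjusted p = 0.000485 and 0.0437).

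**Figure D4:**
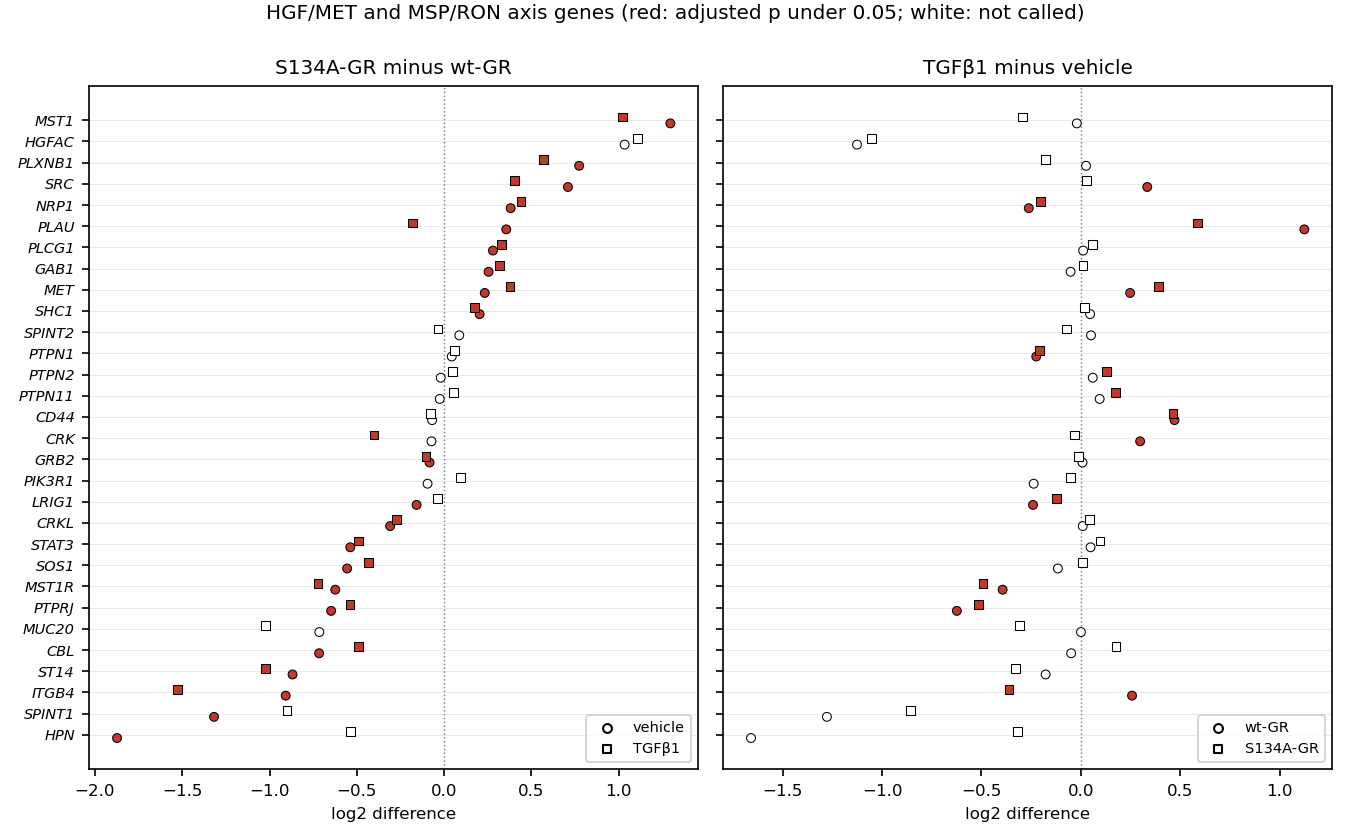
Log2 differences (x axes) between the lines and between TGFβ1 and vehicle for the 28 axis genes with MET and MST1R (y axis, ordered by the difference between the lines under vehicle), red where the limma adjusted p was under 0.05. Circles are vehicle or wt-GR and squares TGFβ1 or S134A-GR. MST1 (1.30) is at the top of the left panel, far above MST1R (−0.62), and PLAU is the point farthest right in the other (1.12 in wt-GR).

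In the response difference, limma called 3 of the 28 axis genes (10.7% against 0.414% of all genes), each a smaller or opposite response in S134A-GR. This list, like the others, was chosen with earlier results of these data known, so its shares are description and test nothing. PLAU differed by −0.54 (adjusted p = 0.000909), SRC by −0.31 (adjusted p = 0.0163) and ITGB4 by −0.62 (adjusted p = 0.0211). SRC rose in wt-GR (0.33) with 0.03 in S134A-GR, which did not pass the test. ITGB4 rose by 0.26 in wt-GR (adjusted p = 0.0243) and fell by 0.36 in S134A-GR (adjusted p = 0.00339). The count was 1 without wt-GR vehicle replicate 2, wt-GR TGFβ1 replicate 1, wt-GR TGFβ1 replicate 3 or S134A-GR vehicle replicate 2.

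Of 17 tested relatives, substrates and regulators of PTK6, 4 were higher and 6 lower in S134A-GR under vehicle (58.8% called against 51.5% of all genes, median −0.08 against 0.02). Under TGFβ1 4 were higher and 5 lower (52.9% against 48.8%). Substrates and binding partners among the higher genes were PXN (paxillin, an adhesion adaptor, log2 difference 0.52 under vehicle and 0.45 under TGFβ1), KHDRBS3 (an RNA-binding protein, 0.24 and 0.30) and ADAM15, a PTK6 binding metalloprotease (0.60 and 0.60), each with a limma adjusted p of 0.00185 or less. STAT3 was lower (−0.54 and −0.49), as was SOCS3, a suppressor of cytokine signaling that inhibits PTK6 (−0.32 and −0.44), with adjusted p of 6.17e-06 or less. CTNNB1 (beta-catenin) was lower under both treatments (−0.28 and −0.35, adjusted p = 2.34e-05 and 3.08e-06). ARHGAP35 (p190RhoGAP) was lower under vehicle (−0.29, adjusted p = 0.00155), with −0.15 under TGFβ1 (adjusted p = 0.0752). KHDRBS1 (Sam68), the RNA-binding relative of KHDRBS3, was lower under both (−0.18 and −0.19, adjusted p = 0.000208 and 0.00015), and is named here after its values were seen.

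The relatives of PTK6 were scarce. SRMS had 24.0 ± 8.01 and 43.1 ± 3.32 normalized counts in wt-GR and S134A-GR vehicle cells, and FRK 76.2 ± 15.6 and 59.1 ± 14.6 (limma adjusted p = 0.0205 and 0.327). TGFβ1 raised 3 and lowered 4 of the 17 genes in wt-GR (41.2% against 21.0% of all genes) and raised 2 and lowered 3 in S134A-GR (29.4% against 18.7%). PXN rose in both lines (0.43 and 0.36) and SOCS3 fell in both (−0.42 and −0.53), with limma adjusted p at most 4.62e-06. Limma called 0 of the 17 for a difference in response, with 2 at an unadjusted p under 0.05 (SFPQ, SOCS3), while edgeR and DESeq2 also called 0 with 2 and 1 at that level. Over all 18579 genes limma called 0.414%, with 1728 at an unadjusted p under 0.05.

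In the TAM family, 2 of 6 genes tested beside AXL were higher and 2 lower in S134A-GR under either treatment, where 51.5% (vehicle) and 48.8% (TGFβ1) of all genes were called. The other receptors MERTK and TYRO3 were higher under vehicle (log2 differences 0.44 and 0.33, limma adjusted p = 3.72e-05 and 4.47e-05), and the sheddases ADAM17 and ADAM10, which cleave AXL from the surface, were lower (−1.05 and −0.32, adjusted p = 6.23e-10 and 9.85e-05). The ligand gene GAS6 had 12780 ± 715 and 13600 ± 472 normalized counts (adjusted p = 0.0897). MERTK fell with TGFβ1 by 0.88 in wt-GR and 1.10 in S134A-GR on the log2 scale (adjusted p = 1.75e-07 and 1.98e-08), and GAS6 rose in wt-GR (0.16, adjusted p = 0.0179). In wt-GR only 1 of the 6 was called without vehicle replicate 1, or without TGFβ1 replicate 1 or 3. The same held with only the groups compared. Limma, edgeR and DESeq2 called 0 of the 6 for a difference in response, each with 2 at an unadjusted p under 0.05 (GAS6, MERTK). Over all 18579 genes limma called 0.414%, with 1728 at that unadjusted level.

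Set among 53 tested receptor tyrosine kinases, MET was 1 of 17 higher and MST1R 1 of 14 lower in S134A-GR under vehicle, 58.5% called against 51.5% of all genes. EPHA3, an ephrin receptor, was far lower (35.6 against 766 normalized counts, log2 difference −4.40), as were TIE1 (−1.46) and ROR1 (−1.25), and ERBB3 and FGFR3 were higher (0.91 and 0.73), with limma adjusted p of 0.000173 or less. With TGFβ1, MET was 1 of 6 raised in wt-GR and 1 of 10 in S134A-GR, beside EPHB2 (1.20 and 1.04), CSF1R (1.38 and 0.95) and EPHA4 (0.89 and 1.13), with limma adjusted p of 4.09e-06 or less. MST1R was 1 of 8 and 1 of 9 lowered (26.4% of the 53 called in wt-GR and 35.8% in S134A-GR, against 21.0% and 18.7% of all genes), beside ERBB3 (−1.10 and −1.30, limma adjusted p = 0.000119 and 2.86e-05) and MERTK. PTK6 was 1 of 12 non-receptor kinases higher under vehicle, with 8 lower of 31 tested (64.5% called against 51.5%). SRC, FES and JAK3 were also higher (0.71, 0.77 and 0.61) and JAK1, JAK2 and TNK1 lower (−0.50, −0.63 and −0.64), with limma adjusted p of 0.0126 or less. With TGFβ1 in wt-GR, PTK6 was 1 of 6 raised, beside PTK2 (focal adhesion kinase, 0.59) and ABL1 (0.53), which rose in S134A-GR as well (0.70 and 0.53), with adjusted p of 5.38e-08 or less.

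**Figure D5:**
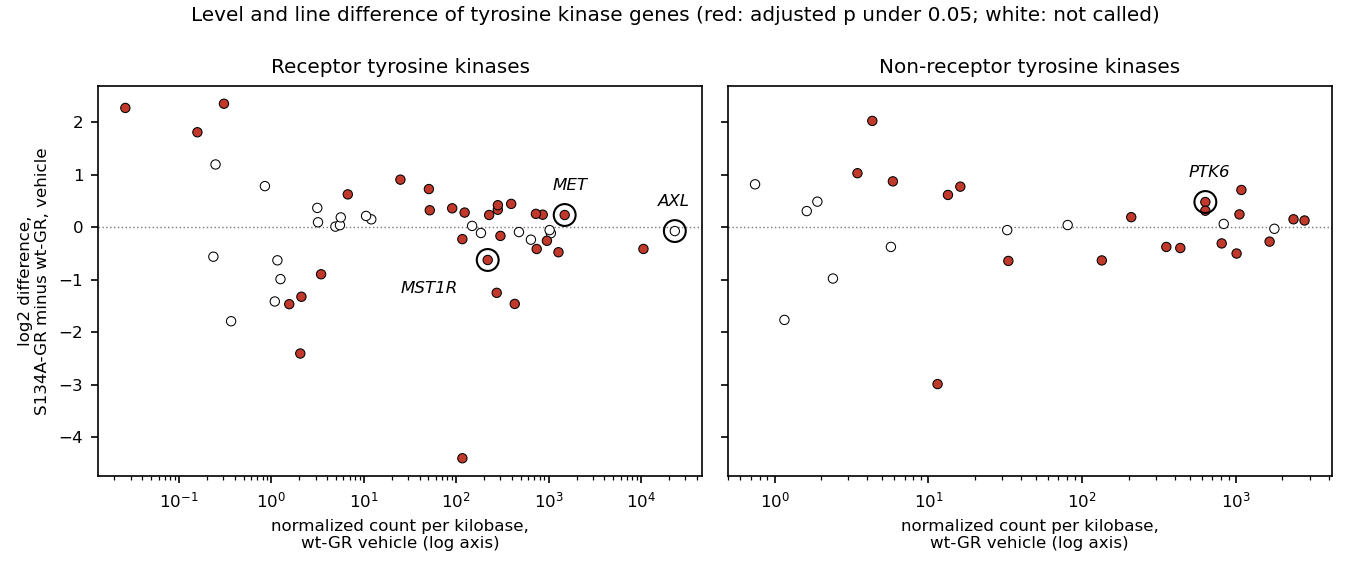
Log2 difference between the lines under vehicle (y axis) against the normalized count per kilobase in wt-GR vehicle cells (x axis, log scale) for 51 receptor and 30 non-receptor tyrosine kinase genes, red where the limma adjusted p was under 0.05 and the 4 genes ringed. AXL is farthest right near 0, MET above and MST1R below the dotted line, and PTK6 among the higher non-receptor kinases. Another 2 receptor genes and 1 non-receptor gene are not drawn because they had no reads in that group or no length.

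EPAS1 (HIF-2 alpha) and AHR, transcription factors that the study names beside PTK6 as targets of the phosphorylated receptor in hormone-treated cells, were both lower in S134A-GR in these libraries without added hormone. Of all genes tested, 26.5% were called lower under vehicle and 25.7% under TGFβ1. PTK6 itself went the other way under vehicle (log2 difference 0.48, limma adjusted p = 0.000265). EPAS1 stood at 3242 ± 48.0 against 10760 ± 406 normalized counts under vehicle (log2 difference −1.73, limma adjusted p = 8.35e-12) and differed by −2.10 under TGFβ1. AHR stood at 3039 ± 95.3 against 4646 ± 234 (−0.61, adjusted p = 2.54e-07) and differed by −0.53 under TGFβ1. TGFβ1 raised EPAS1 and lowered AHR in both lines.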

How the data were processed

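The 12 libraries (4 groups of 3) were sequenced by the authors, whose alignment (HISAT2, hg38) was summarised by gene in featureCounts (Subread), and who deposited for each library a signal per gene, namely the count divided by a DESeq2 (version 1.22.2) size factor, with FastQC (version 0.11.7) among the tools in the submitters' processing notes. The strand setting of the counting is not given in the sources used here. Each value was a whole multiple of the library's step within a tolerance of 0.1, so whole reads could be recovered. No per-sample column was left unmapped, and HGF was not analysed here.

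A gene entered the tests when its reads in all 12 libraries came to 10 or more. Tests used limma (version 3.58.1, R 4.3.3, eBayes with trend) on log2(normalized count + 1), all 4 groups in the model, with Benjamini-Hochberg adjustment over 18579 genes and a call at an adjusted p under 0.05. Fold changes are on that scale, which understates those of low genes. The members and lists were chosen with earlier results of these data known. Named were all members, list genes called for a difference in response, and per comparison and direction up to 3 list genes with the largest change among called genes of mean at least 50 without overlap, together with the 3 genes most alike to each called member and the called nearest neighbours.

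Replicate numbers did not pair the libraries: over 13281 genes, deviations of same-numbered libraries correlated at 0.0003 on average (−0.105 to 0.128), and 2 of 18 pairs exceeded 0.1. Replicates differed by more than sampling noise (9.06 to 46.2 chi-square units for each degree of freedom), and the labels name no batch. These ratios would be too large if both mates of a pair had been counted. Alternatives were other pseudocounts, filters and scaling, edgeR (version 4.0.16), DESeq2 (version 1.42.0), a replicate block, only the groups compared, each library left out, a fold threshold and, chosen after seeing the data, adjustment for GC content and transcript length, for which 88.4% of genes had values. Scripts were tested on simulated data. Lengths and positions came from GENCODE v44 and promoters from RefSeq, whose tables were matched by symbol.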

Additional observations from a re-analysis of the deposited data

Results flagged for a closer look

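The response to TGFβ1 differed between the lines, by the interaction contrast in limma, for 5 genes of the lists, 4 of them described above and PDGFRB, the only 1 called of 53 receptor kinases. PTK6, MET, MST1R and AXL were not among the 5. PLAU (urokinase) rose in both lines and by less in S134A-GR, a log2 difference of −0.5389 between the responses (adjusted p = 0.000909), and was called in 12 of 12 fits that left out a library and in 9 of 9 other alternatives. PDGFRB, a receptor tyrosine kinase for platelet-derived growth factor, rose by 0.86 in wt-GR (2143 ± 35.9 to 3888 ± 151 normalized counts, SD, n = 3) and by 0.18 in S134A-GR (1912 ± 59.4 to 2166 ± 119), a difference of −0.6799 (adjusted p = 0.000909) that was called without any of the 12 libraries.

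SRC differed by −0.307 (adjusted p = 0.0163), a call lost without wt-GR vehicle replicate 2, wt-GR TGFβ1 replicate 1 or 3, or S134A-GR vehicle replicate 1 or 2 (adjusted p up to 0.0689). ITGB4 differed by −0.6183 (adjusted p = 0.0211), a call lost without wt-GR vehicle replicate 2, any wt-GR TGFβ1 replicate, or S134A-GR vehicle replicate 2 or 3 (adjusted p up to 0.0738), and after adjustment for GC content and transcript length (adjusted p = 0.0705). EPAS1 rose by 0.73 in wt-GR and 0.36 in S134A-GR, a difference of −0.3672 (adjusted p = 0.0343), which was called in 4 of 12 fits that left out a library (adjusted p up to 0.114). It was lost without wt-GR vehicle replicate 2, any wt-GR TGFβ1 replicate, any S134A-GR vehicle replicate or S134A-GR TGFβ1 replicate 2. What lies behind these differences was not tested.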

How the results depend on the processing

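Over 20 results for PTK6, MET, MST1R and AXL and 436 alternatives, 407 kept direction and side of the threshold, 10 lost the call, 8 gained one and 11 changed sign, and the cause was not tested. PTK6 between the lines under TGFβ1 was called with filterByExpr and with the replicate block (0.2136 each), DESeq2 (0.2146) and GC and length adjustment (0.2226), and ranged from 0.1393 to 0.3146 with a library left out. The replicate block changed no other call of the 4 genes. Left-out ranges were 0.23 to 0.3486 for PTK6 with TGFβ1 in wt-GR, −0.0572 to 0.1181 in S134A-GR (reversed at −0.0181, −0.0572 and −0.0096 without S134A-GR vehicle replicate 1, TGFβ1 replicate 2 or 3), −0.4256 to −0.3749 for MST1R in wt-GR, and −0.2464 to 0.0626 for its difference in response (reversed without S134A-GR TGFβ1 replicate 1). MST1R in S134A-GR lost its call with only the groups compared (−0.4921). AXL ranged from −0.1102 to −0.0388 between the lines under vehicle, from −0.0329 to 0.0274 under TGFβ1 (reversed at −0.0104 and −0.0329 without replicate 1 of wt-GR or S134A-GR TGFβ1, at −0.0057 with TMM and −0.0051 with edgeR) and from −0.0471 to 0.0243 with TGFβ1 in wt-GR (reversed at 0.0243 and 0.0063 without replicate 1 of wt-GR vehicle or TGFβ1, and at 0.0128 with GC and length adjustment).

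The number of the 4 genes called was 3, 2, 3 and 2 in the 4 comparisons (lines under vehicle, lines under TGFβ1, TGFβ1 in wt-GR, TGFβ1 in S134A-GR). It was 0 in each with an absolute log2 difference of at least 1 required, 1 for TGFβ1 in S134A-GR with only the groups compared, and 1 to 3 for TGFβ1 in wt-GR with a library left out (1 without wt-GR vehicle replicate 2, or TGFβ1 replicate 1 or 3). In the same order, and then for the difference in response, the fold requirement left 3, 3, 1, 0 and 0 MET and RON axis genes (from 19, 17, 9, 9 and 3), 10, 7, 5, 7 and 0 receptor kinases (from 31, 26, 14, 19 and 1), 3, 3, 1, 0 and 0 non-receptor kinases (from 20, 17, 12, 7 and 1) and 1, 1, 0, 0 and 0 of EPAS1 and AHR. It left 0, 1, 0 and 0 PTK6 relatives, substrates and regulators (from 10, 9, 7 and 5) and 1, 0 and 0 TAM genes in the first 3 (from 4, 4 and 2). The share of all genes that met the fold requirement is not given here, so these falls have no background to be read against. GC and length adjustment gave 10 PTK6 partners and 4 TAM genes where 5 and 2 were called for TGFβ1 in S134A-GR and wt-GR, and 2 non-receptor kinases for the response. Calls over all genes rose as well. For TGFβ1 in S134A-GR 2410 of 16428 genes were higher and 1558 lower, against 1860 and 1615 of 18579 in the main fit. For TGFβ1 in wt-GR these were 2463 and 1882 against 2086 and 1824, and for the response 52 and 36 against 31 and 46. Only the groups compared gave 1 TAM gene in wt-GR. Over all genes that setting called 1549 higher and 1395 lower in wt-GR, and 1676 and 1333 in S134A-GR. For the response, TMM, edgeR and DESeq2 each gave 2 receptor kinases and DESeq2 gave 2 non-receptor kinases. Over all genes TMM, edgeR and DESeq2 called 31, 27 and 97 higher and 51, 51 and 114 lower. With a library left out, axis genes numbered 5 to 9 for TGFβ1 in S134A-GR (5 without vehicle replicate 3) and 1 to 3 for the response, TAM genes 1 to 3 in wt-GR (1 without vehicle replicate 1, or TGFβ1 replicate 1 or 3), receptor kinases 1 to 2 for the response (2 without wt-GR vehicle replicate 3), non-receptor kinases 4 to 8 in S134A-GR (4 without vehicle replicate 2) and 0 to 2 for the response (0 in 5 fits), and EPAS1 and AHR 1 to 2 in S134A-GR (1 without vehicle replicate 2 or 3, or TGFβ1 replicate 2) and 0 to 1 for the response. Calls over all genes moved in these fits too. For the response they ran from 8 higher and 14 lower (without wt-GR TGFβ1 replicate 1) to 77 and 89 (without wt-GR vehicle replicate 3). For TGFβ1 in S134A-GR the lowest were 1350 and 1147 (without S134A-GR vehicle replicate 1), and in wt-GR 1508 and 1292 (without wt-GR vehicle replicate 2).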
